A study of Mus musculus with 10 samples.

Results

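The consensus peaks nearest to microRNA genes were examined in mouse neutrophils with and without the long non-coding RNA Morrbid. A peak of H3K4me1, H3K4me3 or H3K27ac was taken when its annotated gene name was Mir followed by a digit, or began with Mirlet7, and its centre lay at most 20 kb from the annotated start of that gene. This gave 2538 of the 203213 peaks of the 3 marks, made up of 1021 of 81980 H3K4me1 peaks, 633 of 53500 H3K4me3 peaks and 884 of 67733 H3K27ac peaks. They carry 625 gene names, of which 543 have an H3K4me1 peak, 412 an H3K4me3 peak and 452 an H3K27ac peak. Of these names 3 are genes of microRNA precursor transcripts (Mir22hg, Mirlet7bhg and Mir143hg), and the others are single hairpins. The series holds chromatin immunoprecipitation and sequencing (ChIP-seq) of neutrophils sorted from mice and not cultured. The wild-type group (WT) is C57BL6, and the Morrbid-deficient group (KO) has the same background, with 1 library per mark and genotype. How the Morrbid deficiency was made, the age of the mice and the number of mice per library are not given in the sources used here. With 1 library per group no difference between WT and KO has a replicate check, no test was possible, and the printed intervals cover counting error between these 2 libraries only.

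A microRNA is cut from a hairpin in a longer primary transcript, and the mature strand then guides the silencing complex to messenger RNAs through its seed, the bases near its 5′ end. Many hairpins lie in introns of protein-coding genes and are transcribed from the host promoter, while others are made from their own non-coding transcript, often as clusters of several hairpins. Promoters carry H3K4me3, and those in use also carry H3K27ac, as active enhancers do. H3K4me1 lies on enhancers and beside promoters, and H3K36me3 on the bodies of transcribed genes. The start used here is the start of the annotated hairpin, which is seldom the promoter, and each peak was given to 1 gene only, the one with the nearest start.

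The mature sequences below belong to the loci whose signal is described, and show which of them could guide silencing through the same seed. They are RefSeq sequences with GRCm38.p6 positions, written 5′ to 3′ with the seed (bases 2 to 8) in capitals. Mature sequences were found for 558 of the 625 names, 922 sequences in all, with 796 different seeds, of which 90 are shared by 2 or more names. The most widely shared seed, AGCAGCA, occurs in 7 names. The first set is from microRNAs abundant in myeloid cells.
mmu-miR-142a-3p (chr11:87756903-87756925, plus strand): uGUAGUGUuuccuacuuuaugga
mmu-miR-142a-5p (chr11:87756867-87756887, plus strand): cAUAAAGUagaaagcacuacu
mmu-miR-223-3p (chrX:96242884-96242905, plus strand): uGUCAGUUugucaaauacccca
mmu-miR-21a-5p (chr11:86584120-86584141, minus strand): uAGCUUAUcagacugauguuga
mmu-miR-23a-3p (chr8:84208563-84208583, plus strand): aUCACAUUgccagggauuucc
mmu-miR-26b-5p (chr1:74394324-74394344, plus strand): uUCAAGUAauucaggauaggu
mmu-miR-22-3p (chr11:75463772-75463793, plus strand): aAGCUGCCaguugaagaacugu
The second set shows seeds shared between microRNAs of loci that are described below (miR-15a with miR-16, printed as listed under Mir16-2, let-7a with let-7i, miR-146a with miR-146b, miR-92a with miR-32) or within one cluster (miR-17 with miR-20a, miR-221 with miR-222).
mmu-miR-17-5p (chr14:115043684-115043706, plus strand): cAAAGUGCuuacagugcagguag
mmu-miR-20a-5p (chr14:115044183-115044205, plus strand): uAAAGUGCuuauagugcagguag
mmu-miR-92a-3p (chr14:115044476-115044496, plus strand): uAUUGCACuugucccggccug
mmu-miR-32-5p (chr4:56895272-56895293, minus strand): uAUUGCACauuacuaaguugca
mmu-miR-15a-5p (chr14:61632075-61632096, minus strand): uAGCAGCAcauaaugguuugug
mmu-miR-16-5p (chr3:69009918-69009939, plus strand): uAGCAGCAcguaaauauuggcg
mmu-let-7a-5p (chr13:48538239-48538260, minus strand): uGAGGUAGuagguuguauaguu
mmu-let-7i-5p (chr10:122985698-122985719, minus strand): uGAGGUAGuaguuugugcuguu
mmu-miR-146a-5p (chr11:43374435-43374456, minus strand): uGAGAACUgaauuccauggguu
mmu-miR-146b-5p (chr19:46342790-46342811, plus strand): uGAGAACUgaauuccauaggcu
mmu-miR-221-3p (chrX:19146307-19146329, minus strand): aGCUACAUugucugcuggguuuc
mmu-miR-222-3p (chrX:19146901-19146923, minus strand): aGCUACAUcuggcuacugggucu
The third set belongs to loci at or near the ends of the KO against WT range, except Mir155, an inflammation-linked locus that is described below.
mmu-miR-203-3p (chr12:112130927-112130948, plus strand): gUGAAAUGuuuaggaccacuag
mmu-miR-760-3p (chr3:122293615-122293634, minus strand): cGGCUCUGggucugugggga
mmu-miR-107-3p (chr19:34820700-34820722, minus strand): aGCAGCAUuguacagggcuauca
mmu-miR-147-5p (chr2:122640814-122640837, plus strand): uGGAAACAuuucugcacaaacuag
mmu-miR-155-5p (chr16:84714143-84714165, plus strand): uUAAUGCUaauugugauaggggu

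Peaks of the 3 marks near microRNAs lay less often at the annotated start than those near other genes. They also had a lower median signal, with the largest gap in signal for H3K4me3. Of the 625 names, 318 (50.9%) had peaks of all 3 marks, against 71.5% of the 18106 other gene names with a peak of any of the marks within 20 kb. H3K4me3 was present for 65.9% of microRNA names and 87.5% of other names. H3K4me1 alone was found for 97 microRNA names (15.5%, other names 6.09%), and H3K4me1 with H3K27ac but without H3K4me3 for 90 (14.4%, other names 5.20%). Of the H3K4me3 peaks near microRNAs 19.0% were centred within 1 kb of the start, against 42.3% near other genes. The median H3K4me3 peak near a microRNA had a signal of 21.2 normalized reads in the WT and 28.6 in the KO, against 63.5 and 76.6 near other genes, and 11.1% of these member peaks were at the file's minimum of 1 read in both libraries. For H3K4me1 the median signals were 40.8 in the WT and 46.2 in the KO, against 54.4 and 55.6 near other genes. Per kb of peak the KO medians of H3K4me1 were 34.4 near microRNAs and 34.6 near other genes. A normalized read is the unit of the deposited signal. Its value per sequenced read differs between libraries.

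The overlap between marks followed the same split. At a minimum overlap of 1 base, 75.7% of the H3K4me3 peaks near microRNAs met an H3K27ac peak (79.0% near other genes), but 49.7% of the H3K27ac peaks near microRNAs met an H3K4me3 peak (67.0% near other genes). H3K36me3, which the choice of members did not use, met 47.7% of the H3K4me3 peaks near microRNAs and 34.5% of those near other genes. Of the member names 368 (58.9%) had an H3K36me3 peak of their own within 20 kb, against 55.9% of other names. These shares are descriptions of 1 peak set per mark.

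Hairpins inside and outside other genes had most of their summed signal on different sides of the start. By RefSeq gene positions, 489 of the names lie inside another gene and 135 do not. For hairpins outside genes 70.4% of the WT H3K4me3 signal and 78.0% of the WT H3K27ac signal lay upstream of the hairpin, the side on which the promoter of an independent transcript lies. For hairpins inside genes the same shares were 40.0% and 41.9%. The KO shares were 75.2% and 77.9% outside genes and 39.9% and 41.2% inside. One peak of Mir101c, described further on, held part of the downstream signal. With the name Mir101c left out, the H3K4me3 share outside genes was 77.1% in the WT and 77.3% in the KO. The shares are of summed signal, so a few strong loci weigh most. Single H3K27ac peaks of Mir3960, Mir23a and Mir142 held 2926, 2007 and 2004 normalized reads in the WT. The median WT H3K27ac sum of hairpins outside genes was 57.8. Shares without these strong loci are not given, so the shares do not describe a typical hairpin. H3K36me3 was stronger around hairpins inside genes, with a median sum of 588 normalized reads in the WT and 574 in the KO, than outside, with 99.3 and 94.5. Per kb of peak the WT medians were 41.6 and 27.4 and the KO medians 40.0 and 28.4.

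**Figure D1:**
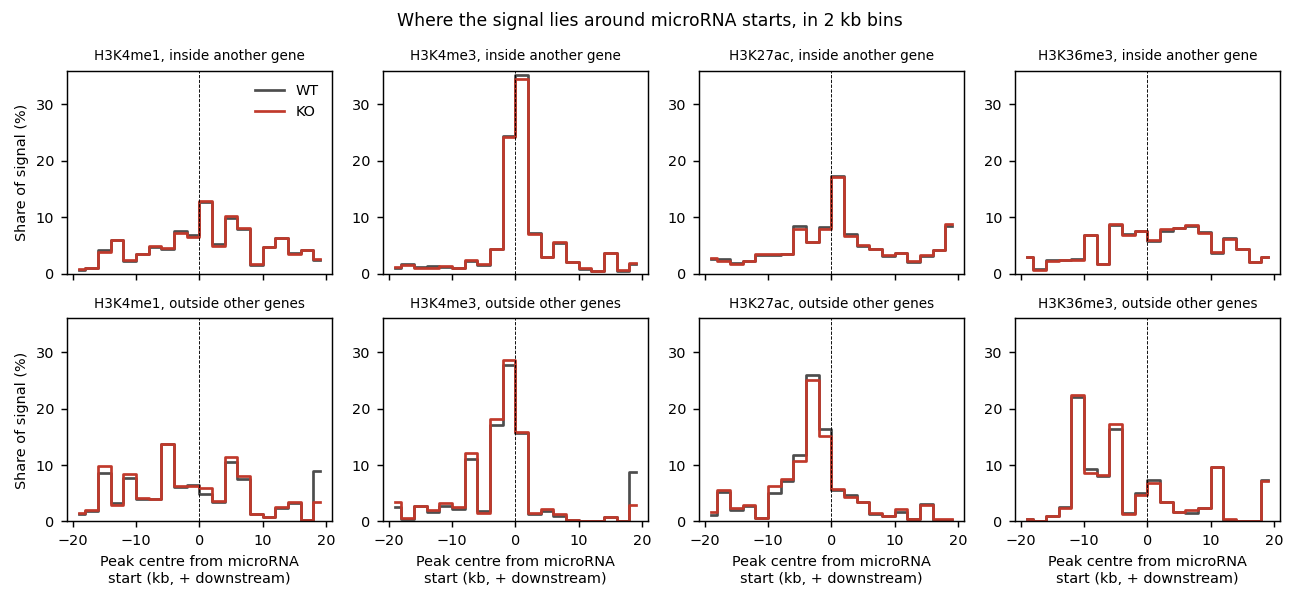
Share of the summed peak signal in 2 kb bins by distance of the peak centre from the annotated microRNA start (kb, positive downstream), for WT and KO, with hairpins inside another gene above and outside other genes below. H3K4me3 of hairpins inside genes is highest just downstream of the start (35.2% of WT signal from 0 to 2 kb). H3K27ac of hairpins outside genes is highest from 4 to 2 kb upstream (26.0%). Single strong peaks weigh on such shares, as those of Mir3960 and Mir142 (2926 and 2004 normalized reads in the WT), centred 3676 and 3367 bases from their starts. The 2 genotypes follow each other except in the last H3K4me1 and H3K4me3 bin below, which holds Mir101c.

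The libraries differed in depth, with 5.87 times as many KO as WT reads in peaks for H3K4me1, 3.85 times for H3K4me3, 4.56 times for H3K27ac and 1.13 times for H3K36me3, and between 2250264 and 14317664 reads per library. At the Morrbid gene itself, listed as Gm14005, the summed H3K4me3 signal within 20 kb was 1092 normalized reads in the WT and 81.8 in the KO. More signal stayed in the KO for the other marks, with 3023 and 1598 for H3K4me1, 2255 and 744 for H3K27ac, and 689 and 276 for H3K36me3. No microRNA name lies in that interval by the naming rule. Of 14 neutrophil markers 12 had H3K4me3 peaks of at least 50 WT reads, with a sum of 26904 normalized reads in the WT and 32290 in the KO. The marker lists of 6 other cell types summed to between 82.4 and 890 in the WT and between 82.4 and 824 in the KO for H3K4me3. For H3K27ac the neutrophil markers summed to 19937 and 19066, and the 6 other lists to between 135 and 997 in the WT and between 137 and 965 in the KO. Fewer cells of a type and less signal per cell cannot be told apart in such libraries.

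Most of the stronger microRNA loci had similar signal in the 2 genotypes. The value of a microRNA was the sum over its member peaks of a mark, and its KO against WT change is log2 of KO plus 1 over WT plus 1, centred on the median of the stronger peaks of that mark. Among microRNAs at or above the median value of all genes, the median change was 0.01 for H3K4me1 (228 microRNAs), -0.07 for H3K4me3 (104 microRNAs) and -0.01 for H3K27ac (162 microRNAs). Over all genes at or above it the medians were -0.01, -0.11 and -0.02. The lower and upper quartiles of the microRNA changes were -0.09 and 0.11 for H3K4me1, -0.21 and 0.02 for H3K4me3, and -0.16 and 0.11 for H3K27ac. For H3K36me3 the medians were 0.01 over 293 microRNAs and 0.02 over all genes.

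Few microRNAs at or above the median value were past 1.5-fold. A microRNA is called here when it is past 1.5-fold and at or above the median value, and weaker loci are not called whatever their fold. For H3K4me1, 4 of the 228 (1.75%) were at least 1.5-fold higher in the KO (Mir107, Mir6976, Mir6981 and Mir7655), each from 35 to 50 WT reads, against a background of 0.293% of all genes. Another 2 were lower (Mir101c and Mir6950, 0.877%), against 0.363%. For H3K4me3, 0 of 104 were higher, with a background of 0.16%, and 3 were lower (Mir101c, Mir17 and Mir760), with a background of 1.39%. For H3K27ac, 0 of 162 were higher, with a background of 0.454%, and 2 were lower (Mir203 and Mir6950), with a background of 0.707%. For H3K36me3, 0 of 293 were higher (background 0.0915%) and 2 were lower (Mir6950 and Mir8100, background 0.165%). The floor was on the mean of the WT and KO sums, so a name could pass it through its higher library alone. Mir6976, Mir6981 and Mir7655 had WT sums of 119, 129 and 136, below the H3K4me1 floor of 148, and passed through the KO. Mir203 had a KO H3K27ac sum of 110, below the floor of 152, and passed through the WT. The background shares used the same floor. Without the floor at the median value, 51 of 543 microRNAs were higher in H3K4me1 (9.39%, all genes 5.16%) and 49 were lower (9.02%, all genes 8.07%). In H3K4me3 58 of 412 were higher (14.1%, all genes 5.64%) and 76 lower (18.4%, all genes 9.43%), and in H3K27ac 34 of 452 were higher (7.52%, all genes 5.18%) and 66 lower (14.6%, all genes 12%). These added microRNAs lie below the median value, where few WT reads stand behind a fold. The called counts are a description, and nothing particular to microRNAs is read from them.

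**Figure D2:**
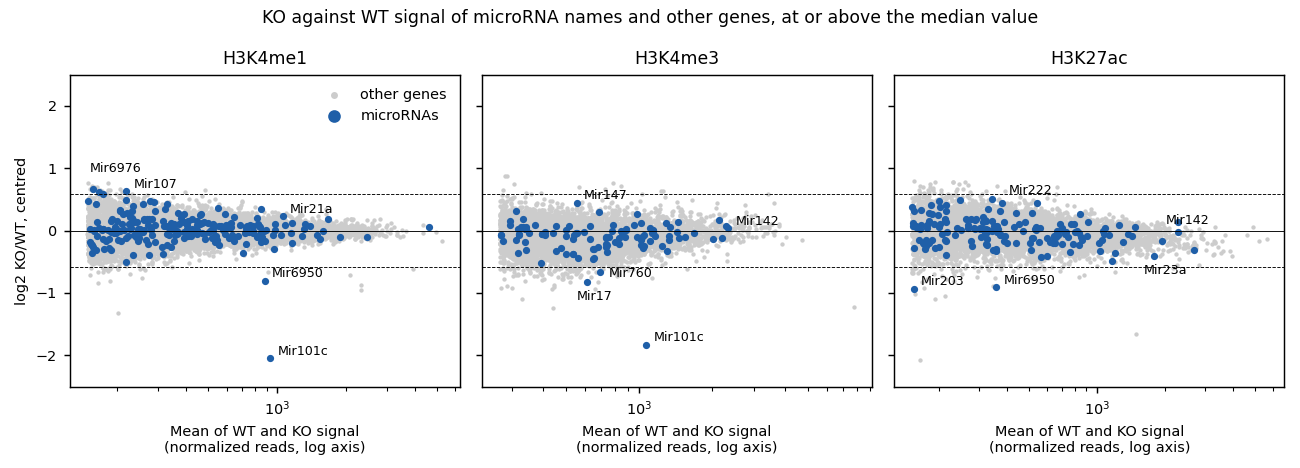
Centred log2 KO/WT against the mean of the WT and KO sums (normalized reads, log axis) for each microRNA name (blue) and each other gene (grey) at or above the median value, with dashed lines at 1.5-fold. Most blue points lie between the dashed lines, with Mir101c lowest in H3K4me1 at -2.05 and Mir17 and Mir760 below the lower line in H3K4me3.

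Among microRNAs known from neutrophils and other myeloid cells, Mir142 had the strongest H3K4me3. This microRNA is made across the blood lineages. A single H3K4me3 peak of 13027 bases upstream of and over the hairpin (chr11:87561343-87574369, mm9) held 2189 normalized reads in the WT and 2495 in the KO, a change of 0.03 (interval -0.07 to 0.14). Its H3K27ac peak held 2004 and 1875, a change of -0.16 (-0.28 to -0.04), and its H3K4me1 peak 255 and 240. Mir142 thus carried strong promoter marks in both libraries, with counting intervals well inside 1.5-fold in either direction for H3K4me3 and H3K27ac.

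Mir223, whose microRNA restrains neutrophil production and activity, had almost no peak under its own name. An H3K4me1 peak 13505 bases downstream held 40.8 normalized reads in the WT and 41.4 in the KO. The H3K36me3 peak over its start (chrX:93435374-93439482, mm9) held 278 in the WT and 230 in the KO, a change of -0.24 (-0.50 to 0.02). The promoter marks over that same H3K36me3 peak were annotated to F630028O10Rik, the gene that Mir223 lies inside, and so fall outside the naming rule. Its H3K4me3 peak (chrX:93430731-93440702) held 1108 in the WT and 1256 in the KO, a change of 0.02 (-0.12 to 0.17), and its H3K27ac peak 953 and 826, a change of -0.27 (-0.44 to -0.10). A microRNA name without a peak here need not be a locus without the mark.

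Mir21a, a microRNA raised in many inflamed and transformed tissues, lies at the end of Vmp1. Its H3K4me3 sum was 843 normalized reads in the WT and 1130 in the KO, a change of 0.27 (0.10 to 0.44), and its H3K4me1 sum was 965 and 1152, a change of 0.23 (0.05 to 0.41). Its H3K27ac sum was 1445 and 1431. Its H3K36me3 sum was 674 and 760, a change of 0.20 (0.05 to 0.36). The KO was thus higher in both methylation marks of lysine 4 and in H3K36me3, by less than 1.5-fold, with intervals above 0. H3K27ac did not share that direction.

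Mir23a is the first hairpin of a cluster with miR-27a and miR-24 that is active in myeloid cells. Its H3K27ac peak of 14624 bases, centred 4289 bases upstream of the hairpin, held 2007 normalized reads in the WT and 1588 in the KO, a change of -0.40 (-0.52 to -0.28). The Mir23a H3K4me3 peak, which lies inside the span of that H3K27ac peak, held 1083 and 1196, a change of -0.01 (-0.16 to 0.14). A second H3K4me3 peak in that span, annotated to Mir3074-2, held 144 and 145, a change of -0.14 (-0.55 to 0.295). H3K4me1 of Mir23a was 893 and 799. The precursor gene of miR-22, Mir22hg, had the densest H3K27ac of all names with at least 50 WT reads, at 207 normalized reads per kb in the WT and 168 in the KO. Its H3K27ac sum was 1335 in the WT and 1083 in the KO, a change of -0.37 (-0.51 to -0.22), and its H3K4me3 sum 579 and 676, a change of 0.07 (-0.14 to 0.27). At both loci H3K27ac was lower in the KO library, while the H3K4me3 intervals included 0. With centring on genes of similar signal per kb the H3K27ac changes were -0.31 for Mir23a and -0.20 for Mir22hg.

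Mir26b, in an intron of the phosphatase gene Ctdsp1, had the densest H3K4me1 of the microRNAs with at least 50 WT reads, at 81.2 normalized reads per kb in the WT and 76.5 in the KO. Its H3K4me3 sum was 1624 and 1766, a change of -0.04 (-0.16 to 0.09), and its H3K27ac sum 793 and 812. Mir191, in the gene Dalrd3, had an H3K4me3 sum of 1052 normalized reads in the WT and 996 in the KO, and an H3K27ac sum of 295 and 345. Of the 15 names of this myeloid list with a member peak, 6 were at or above the median value in H3K4me3, 7 in H3K27ac and 7 in H3K4me1. None of these was called in any of the 3 marks, with median changes of 0.01, -0.08 and -0.11.

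**Figure D3:**
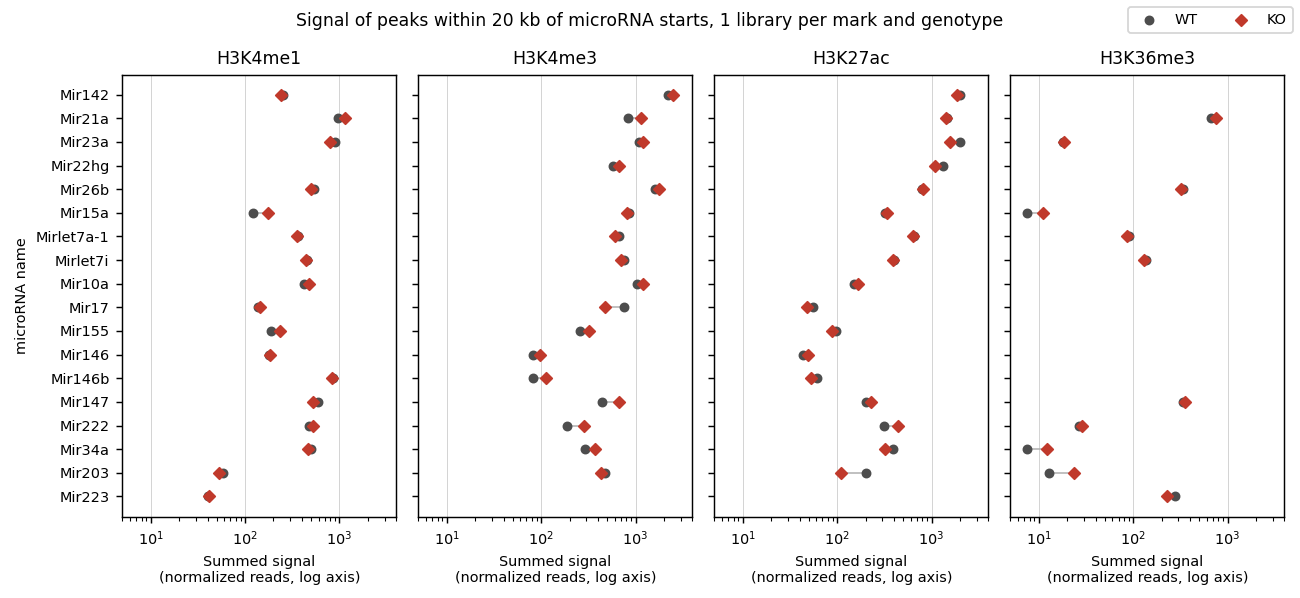
Summed signal in the WT (grey circles) and KO (red diamonds) library for 18 microRNA names described here, 1 panel per mark, on a log axis of normalized reads. No symbol means that no peak of that mark carries the name within 20 kb, and the widest gaps between genotypes among strong loci are those of Mir17 in H3K4me3 (751 and 472) and Mir203 in H3K27ac (201 and 110).

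The Mir17 cluster, which encodes several hairpins that repress the pro-apoptotic Bcl2l11 (Bim), had the lowest H3K4me3 change of the microRNAs at or above the median value after Mir101c, a satellite region described further on. The main H3K4me3 peak, 3310 bases long and annotated to a CpG island 2482 bases upstream of the hairpin (chr14:115438756-115442065, mm9), held 730 normalized reads in the WT and 459 in the KO. A second peak further upstream held 21.2 and 13.0. The Mir17 sum was 751 in the WT and 472 in the KO, a change of -0.83 (-1.02 to -0.63) from 319 WT reads and 727 KO reads. With centring on genes of similar level it was -0.67, and with centring on genes of similar signal per kb -0.69, so that it stayed past 1.5-fold under both.

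Mir17 H3K27ac was low, with 55.1 normalized reads in the WT and 47.4 in the KO, a change of -0.28 (-1.01 to 0.51) from 20 WT reads, and of -0.65 with the KO thinned to the depth of the WT. That interval holds both 0 and the H3K4me3 change, so at this depth the H3K27ac value does not tell whether it follows H3K4me3. Its H3K4me1 sum was 136 in the WT and 143 in the KO. H3K36me3 over the body of the cluster was annotated to Mir92-1, its last hairpin, and held 188 and 187 normalized reads, a change of 0.03 (-0.27 to 0.33). Mir32, which shares the seed of miR-92a printed above, lies in Tmem245 and had H3K27ac sums of 206 and 208 normalized reads and H3K36me3 sums of 535 and 417, a change of -0.33 (-0.52 to -0.14). Of the names of this list Mir17 alone reached the median value in H3K4me3.

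Among microRNAs that respond to inflammatory signals, Mir147 and Mir222 had higher H3K4me3 in the KO. Mir147, which is induced by Toll-like receptor signals in macrophages, lies in the gene AA467197, and the H3K4me3 peak over it (chr2:122463274-122469867, mm9) held 405 normalized reads in the WT and 634 in the KO. The Mir147 sum was 440 and 670, a change of 0.45 (0.22 to 0.68), the highest H3K4me3 change of the microRNAs at or above the median value. It was 0.59 with centring on genes of similar level and 0.44 with centring on genes of similar signal per kb, so it falls on either side of 1.5-fold. H3K4me1 of Mir147 went the other way, with 594 and 518, a change of -0.23 (-0.46 to 0.02). H3K27ac of Mir147 was 201 and 230, and H3K36me3 335 and 357, a change of 0.12 (-0.09 to 0.35).

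Mir222, whose seed is also that of miR-221 and which represses the receptor gene Kit and the cell cycle inhibitor gene Cdkn1b, lies on chromosome X. Its H3K4me3 sum was 186 normalized reads in the WT and 288 in the KO, a change of 0.47 (0.12 to 0.84), below the level at which calls were made. Its H3K27ac sum over 4 peaks was 314 and 446, a change of 0.44 (0.16 to 0.74). Both marks were higher in the KO library. The H3K4me3 change of Mir222 was 0.61 with centring on all peaks and 1.15 for the nearest peak alone, which holds 11.8 and 30.5 normalized reads, so its size falls on either side of 1.5-fold. Chromosome X as a whole had a median change of 0.05 for H3K4me3 and 0.01 for H3K27ac.

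Mir155, which promotes inflammatory gene expression, had an H3K4me3 sum of 261 normalized reads in the WT and 325 in the KO, nearly all of it in a peak 10570 bases upstream of the hairpin, with a change of 0.16 (-0.14 to 0.47). Mir146b and Mir146, which share a seed and feed back on Toll-like receptor signalling, each had 82.4 normalized reads of H3K4me3 in the WT, and 112 and 98.0 in the KO. Mir146b stood apart by a wide H3K4me1 domain of 16236 bases with 846 and 829 normalized reads. These intervals included 0. Of 11 inflammation-linked names with a member peak, 5 reached the median value in H3K4me1 with a median change of 0.01. In H3K4me3 and in H3K27ac 2 names each reached it, with medians of 0.30 and 0.29, and 0 were called in any mark.

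Some let-7 loci and Mir15a had strong promoter marks in both libraries. let-7 microRNAs repress growth genes such as those of Ras, and miR-15a and miR-16 repress the anti-apoptotic Bcl2. Mirlet7a-1 had an H3K4me3 sum of 675 normalized reads in the WT and 613 in the KO, a change of -0.30 (-0.49 to -0.10). The start of Mirlet7i lies 89 bases from the centre of its H3K4me3 peak, which held 758 and 702, a change of -0.27 (-0.45 to -0.08). Mir15a, in the non-coding gene Dleu2, had 847 and 815, a change of -0.21 (-0.38 to -0.04), in a peak 16447 bases upstream over a CpG island. The H3K4me3 median over all genes was -0.11, and the H3K27ac changes were -0.09 for Mirlet7a-1, -0.08 for Mirlet7i and 0.02 for Mir15a. Mir16-2, in Smc4, had an H3K4me1 sum of 115 and 117 normalized reads, an H3K27ac sum of 27.5 and 27.7 and no H3K4me3 peak under its name. The other 3 let-7 names with an H3K4me3 peak did not reach the median value, and 0 of the 6 let-7 names were called in any mark.

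Of the other microRNAs linked to cell death, Mir34a, a direct target of p53, had 292 normalized reads of H3K4me3 in the WT and 370 in the KO, a change of 0.18 (-0.10 to 0.48). Its H3K27ac sum was 388 and 325, a change of -0.32 (-0.59 to -0.04). Mir107, in an intron of the pantothenate kinase gene Pank1, was higher in H3K4me1, with 170 normalized reads in the WT and 268 in the KO, a change of 0.63 (0.21 to 1.08). Most of that difference lay in a peak 16703 bases downstream, with 40.8 and 99.4. The peak nearest to Mir107, at 5566 bases upstream, went the other way, with 37.4 and 27.2 and a change of -0.47 (-1.46 to 0.61). The H3K27ac sum of Mir107 was 55.1 and 80.7, a change of 0.48 (-0.20 to 1.24), and with the nearest H3K27ac peak of Mir107 alone it was -0.36. Among the 10 names of this list with a member peak, Mir107 was the 1 called.

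Among the microRNAs in Hox clusters and of early progenitors, Mir10a was the strongest in H3K4me3. It lies in Hoxb3, and its larger H3K4me3 peak is annotated to the promoter of Hoxb4. The H3K4me3 sum of Mir10a was 1038 normalized reads in the WT and 1192 in the KO, a change of 0.04 (-0.11 to 0.20). Mir10b, the member of the same pair in the Hoxd cluster, had 56.5 and 105, a change of 0.73 (0.12 to 1.42) from 24 WT reads. It lies below the level of calls. Mir29b-1, which represses collagen genes, had H3K27ac sums of 358 and 369 and an H3K36me3 sum of 1023 and 1101. Mir125b-2 had an H3K27ac sum of 93.6 and 60.3 normalized reads, a change of -0.69 (-1.28 to -0.09) from 34 WT reads, and this too lies below the level of calls. Of 13 names of this list with a member peak, 0 were called in any mark.

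The lymphoid and erythroid lists held few strong loci. The 5 lymphoid names with an H3K27ac peak had sums from 2.75 to 380 normalized reads in the WT and from 0.616 to 377 in the KO. Mir181c, of a family that tunes T cell receptor signalling, had an H3K4me3 sum of 574 normalized reads in the WT and 492 in the KO, a change of -0.38 (-0.59 to -0.17). Mir148a had 360 and 324, a change of -0.31 (-0.57 to -0.04). Mir210, which is induced by low oxygen and rises in erythroid cells, had 111 and 108. Mir144 had neither an H3K4me3 nor an H3K27ac peak under its name. The lymphoid names that could be called, being at or above the median value, were 1 in H3K4me1, 2 in H3K4me3 and 1 in H3K27ac, and 0 of them were called. No erythroid name reached that level in these 3 marks. Mir181c and Mir148a were the 2 lymphoid names that reached the median value in H3K4me3, with a median of -0.34.

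MicroRNAs typical of other tissues were mostly weak, with a few exceptions. Over the 11 names of this list with an H3K4me3 peak the median sum was 25.9 normalized reads in the WT and 40.9 in the KO. Mir203, known from skin, had 480 and 426, a change of -0.33 (-0.56 to -0.10), in peaks annotated at its start and in an intron of Aspg. Mir499, in the muscle myosin gene Myh7b, had a single H3K27ac peak that lies 17616 bases away over exons of Trpc4ap, with a sum of 275 and 411, a change of 0.51 (0.21 to 0.83). Mir200c, known from epithelia, had 179 and 249 for H3K27ac, a change of 0.41 (0.03 to 0.81). Mir9-2 and Mir9-3, known from the nervous system, had H3K4me3 sums of 101 and 136 and of 167 and 195 normalized reads. Of the 18 names of this list with a member peak, Mir203 was the 1 called, in H3K27ac.

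The H3K27ac signal of Mir203 was lower in the KO library. Both peaks took part, the one at the start (chr12:113368192-113369506, mm9) with 124 normalized reads in the WT and 69.6 in the KO and the one in the Aspg intron with 77.1 and 40.0. The Mir203 sum was 201 and 110, a change of -0.93 (-1.34 to -0.53) from 73 WT reads. With the KO thinned to the depth of the WT it was -0.65, still past 1.5-fold. The H3K4me1 sum of Mir203 was 57.8 and 52.7, a change of -0.16 (-0.92 to 0.68). Its H3K36me3 sum was 12.9 and 23.4, a change of 0.84 (-0.15 to 2.02) from 12 WT reads.

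Mir6950, a hairpin in the lysyl oxidase gene Loxl2, was lower in the KO in all 4 marks. Its H3K4me1 sum was 1111 normalized reads in the WT and 649 in the KO, a change of -0.80 (-0.99 to -0.62), and its H3K27ac sum was 462 and 257, a change of -0.91 (-1.17 to -0.64). H3K36me3, in 4 peaks, was 412 and 175, a change of -1.20 (-1.47 to -0.95). H3K4me3 was weak and below the level of calls, with 91.8 and 39.6, a change of -1.35 (-1.97 to -0.75). The peaks lie in introns and an exon of Loxl2 and, for 1 H3K36me3 peak, in R3hcc1, and Mir6950 is only the nearest annotated start, so the signal may equally be counted to Loxl2.

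Among microRNAs strong enough to be called, Mir101c had the lowest H3K4me1 and H3K4me3 changes, and nearly all of its signal lies in peaks annotated to a repeat. The H3K4me1 peak given to it covers 38456 bases at the assembled start of chromosome 9 (chr9:2999907-3038362, mm9), with its centre annotated as the major satellite repeat GSAT_MM, as are the centres of all its other peaks but 1 H3K4me3 peak at the lowest value. The H3K4me1 sum of Mir101c was 1491 normalized reads in the WT and 367 in the KO, a change of -2.05 (-2.23 to -1.87). The H3K4me3 change was -1.83 (-1.98 to -1.68), that of H3K27ac -1.63 (-2.08 to -1.21) and that of H3K36me3 -0.13 (-0.27 to 0.01). How the submitters placed reads from satellite copies is not stated in the labels, so these values are uncertain as values of that place. With the KO thinned to the depth of the WT the changes were -2.23 for H3K4me1 and -1.88 for H3K4me3 at Mir101c, as large as without thinning.

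Mir760 had one of the densest H3K4me3 signals, with 271 normalized reads per kb in the WT and 191 in the KO. Its sum was 807 in the WT and 569 in the KO, a change of -0.66 (-0.84 to -0.48), nearly all from a peak of 2107 bases over its start (chr3:121995480-121997586, mm9). This change became -0.50 with centring on genes of similar level and -0.45 with centring on genes of similar signal per kb, below 1.5-fold under both. H3K27ac of Mir760 was 223 and 209, and H3K4me1 316 and 339.

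Besides Mir107, the microRNAs called as higher in H3K4me1 had few WT reads. Mir6976, in the transcription factor gene Srf, had 119 normalized reads in the WT and 194 in the KO, a change of 0.67 (0.17 to 1.22) from 35 WT reads. Mir7655, in Mllt10, had 136 and 209, a change of 0.59 (0.12 to 1.10), and H3K4me3 of 487 and 510. Mir6981, in Arap3, had 129 and 204, a change of 0.62 (0.14 to 1.15). The lower limits of these intervals lie well inside 1.5-fold. Mir7089, in the phosphatase gene Cdc25a, came next among names at or above the median value, with 180 and 257, a change of 0.48 (0.07 to 0.93). At the other end Mir6935, in the actin gene Actg1, had 255 normalized reads of H3K4me1 in the WT and 182 in the KO, a change of -0.51 (-0.88 to -0.13).

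Among microRNAs at or above the median value, several hairpins inside other genes lay at the ends of the H3K27ac range. Mir33, in the sterol regulator gene Srebf2 and itself a repressor of cholesterol export, had 162 normalized reads in the WT and 238 in the KO, a change of 0.48 (0.08 to 0.90). Mir3092, in Fndc3b, had 201 and 295, a change of 0.49 (0.13 to 0.86), and Mir7056, in the phosphatase gene Ptpn5, had 451 and 639, a change of 0.43 (0.20 to 0.68). With Mir499 and Mir222 these were the 5 highest of the names at or above the median value, all below 1.5-fold. The lowest of those names after Mir203 and Mir6950 were Mir7681 and Mir5107. Mir7681, in Hecw2, had 1332 and 995, a change of -0.49 (-0.63 to -0.34). Mir5107, in the invariant chain gene Cd74, had 636 and 497, a change of -0.42 (-0.63 to -0.20). Without the floor, 34 of 452 names were at least 1.5-fold higher in H3K27ac (7.52%, all genes 5.18%) and 66 lower (14.6%, all genes 12%).

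Mir8100, in the metalloprotease gene Adam19, was past 1.5-fold lower in H3K36me3. Its H3K36me3 sum over 4 peaks was 749 normalized reads in the WT and 473 in the KO, a change of -0.63 (-0.80 to -0.46). Its H3K27ac sum was 317 and 321, and its H3K4me1 sum 248 and 247.

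The H3K4me3 changes were lower where the signal was denser, in microRNAs as in other genes. The 10 microRNAs with the densest WT H3K4me3 were led by Mir5131 (280 normalized reads per kb in the WT, 245 in the KO), Mir8109 (277 and 227) and Mir760, and all 10 had changes below 0. They were picked for a high WT value, which favours a change below 0. When genes were ranked by signal per kb and cut into 4 equal bins, 17 of 17 microRNAs of the densest H3K4me3 bin were below 0 with a median of -0.24, and of all genes of that bin 90.7% were below 0, with a median of -0.20. In the bin of lowest density the medians were -0.02 over 28 microRNAs and 0.01 over all genes. H3K27ac had a smaller trend of the same direction, with microRNA medians of 0.03 and -0.12 in the lowest and highest bin and medians over all genes of 0.03 and -0.09. For H3K4me1 the microRNA medians were 0.09 and -0.04 in the same bins and those of all genes 0.05 and -0.03. For H3K36me3, whose 2 libraries were of similar depth, the order was the other way, with -0.04 and 0.03 for microRNAs and -0.01 and 0.04 for all genes. The KO libraries of the other 3 marks were several times deeper, and the part of depth in this trend was not tested.

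In H3K27ac 8 of the 10 microRNAs with the densest WT signal were below 0. These too were picked for a high WT value, which favours a change below 0. In the densest bin 19 were below and 4 above 0, while 68.2% of all genes of that bin were below 0. After Mir22hg the densest were Mir3960, with 199 normalized reads per kb in the WT and 168 in the KO and a change in its sum of -0.31 (-0.41 to -0.22), and Mir7655, with 152 and 166 and a change of 0.06 (-0.21 to 0.35). Mir6996, in Notch1, had 125 and 104 and a change of -0.33 (-0.49 to -0.17). Mir8120 had 126 and 72.8 and a change of -0.85 (-1.30 to -0.40) from 60 WT reads, below the level of calls. Mir3960 had -0.15 with centring on genes of similar signal per kb.

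**Figure D4:**
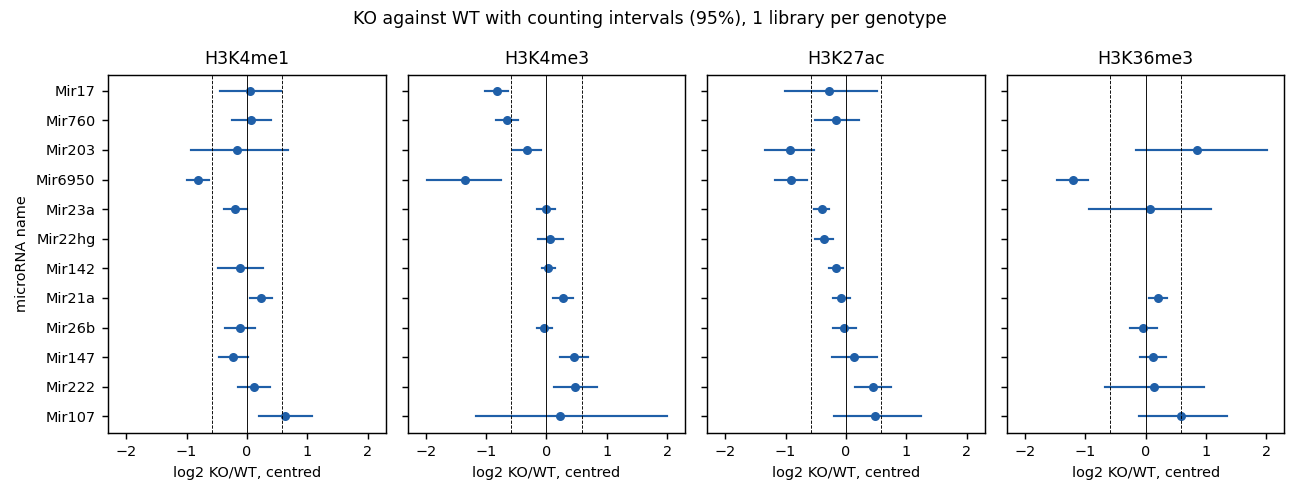
Centred log2 KO/WT with its 95% counting interval for 12 microRNA names, 1 panel per mark, with dashed lines at 1.5-fold. Mir6950 lies below 0 in every panel, whereas Mir17 is past the lower line in H3K4me3 and Mir203 in H3K27ac, and neither is past it in the other panels. Mir203 lies past the upper line in H3K36me3, from 12 WT reads and with an interval that includes 0.

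In several clusters the strongest promoter marks and the strongest mark of the transcribed body were given to different hairpins. H3K36me3 over the Mir142 hairpin carries the name Mir142b, with 146 normalized reads in the WT and 166 in the KO. H3K36me3 of the let-7 cluster is at Mirlet7d, with 319 and 326, while the promoter marks are at Mirlet7a-1, which has a weaker H3K36me3 peak with 90.1 and 85.1. H3K36me3 over Dleu2 is at Mir16-1, in a peak of 45276 bases with 2132 and 2126, while its promoter marks are at Mir15a. H3K36me3 beside the Mir23a cluster is at Mir3074-2, with 1593 and 1594, in a peak of 30713 bases that reaches into Zswim4. Its signal may equally be counted to Zswim4, so it is not read as the transcribed body of the Mir23a cluster. Mir3074-2 also has H3K4me3 sums of 172 and 192 and H3K27ac sums of 138 and 142. At these 4 loci the KO against WT changes of H3K36me3 were 0.22, 0.07, 0.03 and 0.03, and all 4 intervals included 0.

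The values on either side of the distance limit were as follows. H3K4me1 peaks from 18 to 20 kb had a median signal of 34.0 normalized reads in the WT and 37.6 in the KO (64 peaks), and those just outside, from 20 to 22 kb, of 57.7 and 42.9 (48 peaks). H3K4me3 peaks from 18 to 20 kb had medians of 23.5 and 21.4 (39 peaks), and those just outside of 24.7 and 32.5 (30 peaks). For H3K27ac the medians were 27.5 and 34.5 inside and 24.8 and 25.2 outside.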

How the data were processed

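Histone marks were measured by ChIP-seq in 8 libraries, and 2 libraries titled as input DNA were not used. The submitters' processing notes name the aligner Bowtie2 (2.2.3), the peak caller MACS2 (2.1.0), HOMER and DiffBind, the trimmer Trimmomatic (0.32) and build mm9, and settings and any input subtraction are not given in the sources used here. The deposited tables give, per consensus peak, the authors' normalized signal of each library and a deposited log2 fold. In each column 100% of values were whole multiples of the lowest value within 0.01, so whole reads were recovered. With 1 library per group no count model could be fitted and no p-value is given. A gene's value was its sum over peaks within 20 kb. Centring used peaks at or above the median signal. Calls used a pseudocount of 1, a fold of 1.5 and a floor. The floor was the median, over all genes of the mark, of the mean of the WT and KO sums. Intervals are exact (Clopper-Pearson) 95% binomial intervals, without pseudocount. PCR copies are not independent molecules. Whether the lowest value also stands for peaks without a read is not given. The steps were tested on simulated reads. MicroRNAs were named by rule: the 10 densest per mark among those with 50 WT reads, the 5 highest and 5 lowest changes per mark, and members of 9 lists with at least 20 WT reads of H3K4me3 or H3K27ac or among the 2 strongest of a list in H3K4me1. Mir8100 and the peaks beside Mir223, Mir142b, Mir92-1, Mirlet7d, Mir16-1 and Mir3074-2 were added after their values were seen. Members and lists were chosen with earlier results of these data known. Names were matched to a GRCm38.p6 RefSeq table (624 of 625, 6 under newer names), which also gave host genes. Peak coordinates are mm9, 1-based. Values were computed with pandas 2.3.3, intervals with scipy 1.17.1 and figures with matplotlib 3.10.9 under Python 3.11.15. Alternatives covered the centring, thinning, pseudocount, floor, distance and fold.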

Additional observations from a re-analysis of the deposited data

How the results depend on the processing

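No paired analysis was possible because each group has 1 library. The microRNA medians of H3K4me1 and H3K27ac lay between -0.04 and 0.05 under all settings run. That of H3K4me3 turned from -0.07 to 0.07 with centring on all peaks and to 0.03 with a running median. No alternative was run for H3K36me3. Without the filter on low values the counts at least 1.5-fold higher in the KO were 51 of 543 (H3K4me1), 58 of 412 (H3K4me3) and 34 of 452 (H3K27ac), and those lower were 49, 76 and 66, with shares over all genes from 5.16% to 5.64% and from 8.07% to 12%. At a fold of 2 the count was 0 higher and 1 lower for H3K4me1, 1 lower for H3K4me3 and 0 lower for H3K27ac. With peaks within 5 kb, H3K4me1 gave 2 higher and 1 lower, and 133 names had all 3 marks. With KO reads thinned to WT depth H3K4me1 gave 7 higher and H3K4me3 5 lower. With a running median over genes of similar level, or centring on all peaks, H3K4me3 gave 1 higher. Centring on genes of similar signal per kb, chosen after seeing the data, left 2 lower in H3K4me3. Shares over all genes are given only for the main setting and without the filter on low values. The counts under the other settings have no background beside them, so nothing particular to microRNAs is read from them. With the nearest peak alone Mir107 turned to -0.47 in H3K4me1. Of 1409 alternative values of 83 named microRNAs, 121 had the other sign than the main value. Mir107 was the 1 among called values. Beside it, 68 lay outside the main counting interval. Weak loci rest on few WT reads, which limits them.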
